A study of Homo sapiens with 160 samples.

Results

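The 10 genes described here are the 4 EGR transcription factors (EGR1, EGR2, EGR3 and EGR4), the NAB co-repressors NAB1 and NAB2, the immediate early response genes IER2 and IER3, the midnolin gene MIDN and the ring finger gene RNF227. They are 10 of the 29273 genes with deposited values and were chosen by symbol. BEAS-2B, an immortalised human bronchial epithelial cell line, was grown to confluence and held in serum-free medium overnight before treatment. Cells of all groups were the same line, and the groups were mometasone with indacaterol and carbachol, mometasone with indacaterol, mometasone with carbachol, indacaterol with carbachol, carbachol alone, indacaterol alone, mometasone alone and vehicle. Mometasone, a glucocorticoid, was used at 100 nM, indacaterol, a long-acting β2-adrenoceptor agonist, at 100 nM, and carbachol, a muscarinic receptor agonist, at 10 µM. RNA was sequenced after 1, 2, 6 and 18 h, and 150 of 160 libraries were used, with 5 in each of 24 groups, 4 in each of 6 and 3 in each of 2 groups at 18 h, those with mometasone alone and with every agent.

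EGR proteins are zinc finger transcription factors that bind GC-rich DNA, and EGR1 is an immediate early gene whose RNA rises and falls quickly after stimulation through serum response factor and its ternary complex partners. NAB1 and NAB2 bind EGR proteins and limit the transcription they drive, and NAB2 is itself known as an EGR1 target, which makes it part of a feedback loop. Midnolin, the product of MIDN, brings short-lived nuclear proteins, EGR1 among them, to the proteasome. Muscarinic agonists signal in airway epithelium mainly through Gq-coupled receptors and β2-agonists through cyclic AMP, and the study asked how these signals interact in these cells.

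Sequence before the start site is shown for EGR1 and RNF227. On average over the treatments with and without it, indacaterol lowered these and NAB2, whose sequence is not shown, at 1 and 2 h. Given alone, it passed against vehicle at 1 h for EGR1 and not for NAB2 or RNF227. EGR1 lies on chromosome 5 (138465490 to 138469315, forward strand) and RNF227 on chromosome 17 (7913324 to 7916276, reverse strand) in the GENCODE 29 annotation of GRCh38. The 250 bases before the RefSeq start (GRCh38.p14) are printed 5′ to 3′ on the gene's strand, and capitals mark CArG boxes, the element that serum response factor binds, and TGACG or its reverse complement CGTCA, the core of the cyclic AMP response element.
EGR1, chr5:138465229-138465478, forward: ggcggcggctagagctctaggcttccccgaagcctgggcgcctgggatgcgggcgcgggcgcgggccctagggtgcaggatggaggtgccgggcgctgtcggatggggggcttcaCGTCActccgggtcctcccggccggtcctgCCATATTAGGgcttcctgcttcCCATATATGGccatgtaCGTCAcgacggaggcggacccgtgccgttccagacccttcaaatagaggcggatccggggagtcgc
RNF227, chr17:7916290-7916539, reverse: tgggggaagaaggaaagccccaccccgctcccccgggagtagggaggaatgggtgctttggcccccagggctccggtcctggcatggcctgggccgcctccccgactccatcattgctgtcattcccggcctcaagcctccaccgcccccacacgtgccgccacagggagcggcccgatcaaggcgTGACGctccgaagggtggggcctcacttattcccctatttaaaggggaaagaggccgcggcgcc

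The EGR1 window held 2 CArG boxes, with first bases at -105 and -83 from the start, and 2 TGACG matches at -135 and -66. The RNF227 window held 1 TGACG match, at -64, and no CArG box. Of all 35116 windows of this length, 1.16% held a CArG box and 21.2% a TGACG, both strands searched. These are shares of single windows. A member is counted below if any of its windows held the motif. EGR2 and NAB1 had 3 windows each and MIDN 2, which gave them more chances of a match. Of the 8 members with a window in the RefSeq table, 7 held a TGACG: EGR1, EGR2, EGR4, IER2, MIDN, NAB1 and RNF227, and not NAB2. The full TGACGTCA, which 1.65% of all windows held, was in the windows of 0 of the 8 members. CArG boxes were in 2, EGR1 and EGR2, EGR2 with 1 at -71 in 1 of its 3 windows. The EGR-binding sequence GCGGGGGCG, which 4.72% of all windows held, was in the windows of 3 members. NAB2 (chromosome 12, 57088894 to 57095476, forward strand) held 1 copy, at -62, and MIDN 1, at -248 in 1 of its 2 windows. NAB1 held 2 copies that overlap each other, at -42 and -36 of one window and, the same bases again, at -230 and -224 of a neighbouring one, which also held the related GCGTGGGCG (in 0.72% of all windows) at -175. Positions count from RefSeq starts, which differ from the GENCODE starts. The MIDN window with the copy (1249638 to 1249887) and both NAB1 windows lie inside the GENCODE genes. The NAB2 window (57088864 to 57089113) runs into its gene, and its copy lies inside. These matches are letters in a window, and binding was not measured.

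Only 7 of the 10 genes passed the filter on low values, which asked for 5 or more libraries at 1 or above. EGR4 reached no more than 0.17 in any library and was listed at 0 in 116 of 150, EGR3 reached 1.06 in 1 library, and EGR2 reached at least 1 in 4 libraries, with a highest value of 2.34. The values are normalised by the authors, and their depth is unknown. EGR2 at 1 h was 1.02, 0.28, 1.96, 0.22 and 0.61 with mometasone and carbachol, replicates 1 to 5. It was 1.8, 0.22, 2.34, 0 and 0.42 with carbachol alone, and 0.34, 0.14, 0.24, 0.11 and 0.38 with vehicle. All 4 EGR2 values of at least 1 were therefore 1 h libraries of replicates 1 and 3 that had carbachol and no indacaterol. EGR2, EGR3 and EGR4 enter none of the counts below.

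Facts of the whole series touch these genes at a few points. The keratin genes KRT8, KRT17 and KRT18 were at least 76.43 in every library, while the epithelial genes TP63, EPCAM, KRT19 and KRT5 had medians of 0.13 to 0.585 and CDH1 of 3.265. The fibroblast list was mixed, with COL1A1 at a median of 633.815 (271.81 to 888.22) and COL3A1, DCN and LUM at medians of 1.345, 1.695 and 0.04. The leukocyte genes PTPRC, CD14, LYZ and CD3E had medians of 0.785, 0.895, 0.18 and 0. The endothelial genes PECAM1, VWF and CDH5 had medians of 0.14, 0.23 and 0.07. Mitochondrial genes made up 5.88 to 28.3% of the summed values. The 6 libraries above 20% were all of replicate 1, among them carbachol at 1 h and indacaterol at 1 h and 2 h. In these bulk samples, fewer cells of a kind and less RNA per cell cannot be told apart. The labels do not say that replicates were separate cultures, so p-values measure the spread between these libraries, which may be technical.

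Carbachol raised IER2 at 1 h and NAB2, MIDN and RNF227 at 2 h. Indacaterol lowered EGR1, NAB2 and RNF227, and IER3 at 6 h. Set against vehicle, indacaterol alone did not pass for IER3 at 6 h, nor for NAB2 and RNF227 at 1 h. Mometasone lowered IER3, IER2 and MIDN at every time. NAB1 passed the test in none of the comparisons made in the fit without a replicate block. Effects are given as the mean of 4 differences, with minus without the agent, over the 4 backgrounds of the other agents. They are log2 changes of (value + 1), which understate the change of low genes, with limma's p-values adjusted by Benjamini-Hochberg over 14827 genes and a threshold of 0.05.

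**Figure D1:**
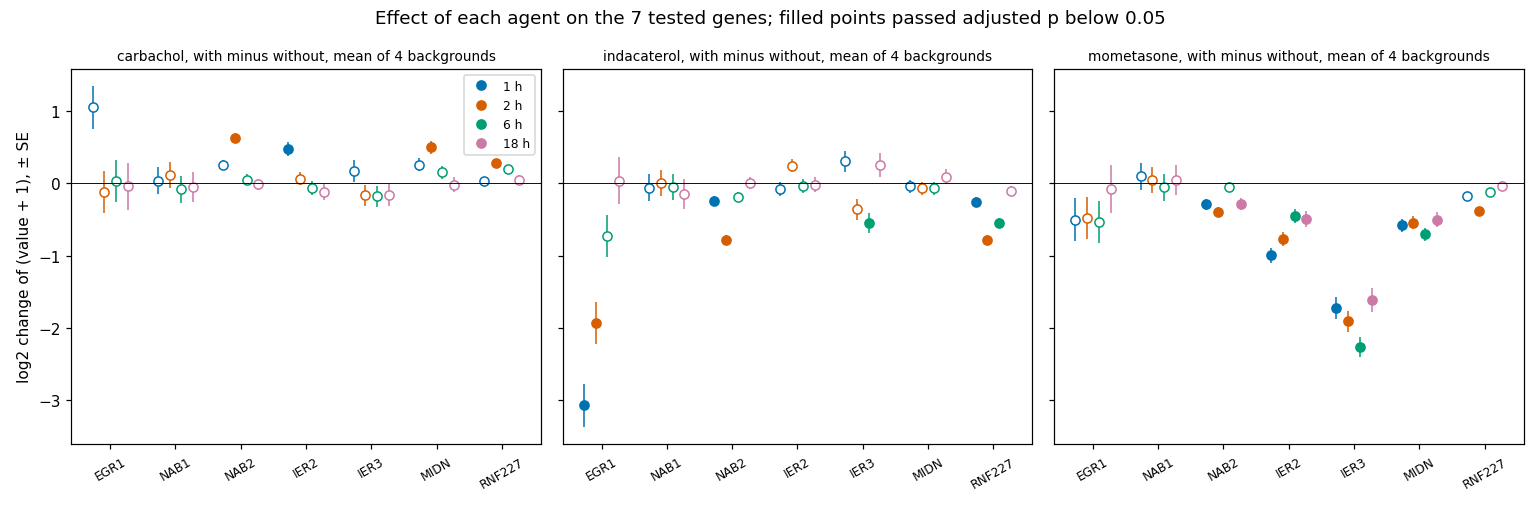
The panels plot, for carbachol, indacaterol and mometasone, the log2 change of (value + 1) of the 7 tested genes at 1, 2, 6 and 18 h, with SE bars; filled points passed an adjusted p below 0.05. The lowest point is EGR1 with indacaterol at 1 h (-3.07), and IER3 with mometasone lies between -2.26 and -1.61 at all 4 times.

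EGR1, the best known immediate early factor of the family, was highest with carbachol at 1 h and far lower in every indacaterol group. At 1 h it was 40.77, 3.32, 25.38, 3.05 and 16.67 with indacaterol and carbachol in replicates 1 to 5. With carbachol alone it was 426.57, 29.98, 539.14, 19.78 and 188.57. With indacaterol alone it was 11.35, 1.76, 23.42, 2.19 and 6.07, and with vehicle 123.04, 23.03, 76.82, 14.19 and 53.53. Replicates 2 and 4 were low in all 4 groups and the groups overlap, although within each replicate number carbachol was the highest of the 4. EGR1 was higher with carbachol than without it in 18 of 18 same-numbered pairs at 1 h, by 1.05 ± 0.30 (SE) over the 4 backgrounds, and missed the threshold without a replicate block (adjusted p = 0.186). With the replicate number as a block it passed (adjusted p = 2.02e-12).

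Indacaterol lowered EGR1 by a log2 change of -3.07 ± 0.30 (SE) at 1 h, which is 8.39-fold on this scale (adjusted p = 5.75e-16), and by -1.93 ± 0.29 (SE) at 2 h (adjusted p = 2.65e-08). It was lower in 18 of 18 pairs at 1 h and 20 of 20 at 2 h. With indacaterol, 182 of 14827 genes (1.23%) fell at 1 h and 802 (5.41%) at 2 h, and 3 of the 7 tested members fell at each of these times, EGR1, NAB2 and RNF227. At 6 h EGR1 was again lower in 20 of 20 pairs, by a log2 change of -0.73 ± 0.29 (SE), with an adjusted p of 0.0875 without the block and 2.25e-08 with it. At 18 h, when 1.6% of genes and no member passed in either direction, the effect was near 0 (0.04 ± 0.33 (SE), 95% interval -0.61 to 0.69). The smaller fall at 2 h than at 1 h was a difference of 1.139 ± 0.42 (SE), with an adjusted p of 0.222 without the block and 8.35e-09 with it.

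**Figure D2:**
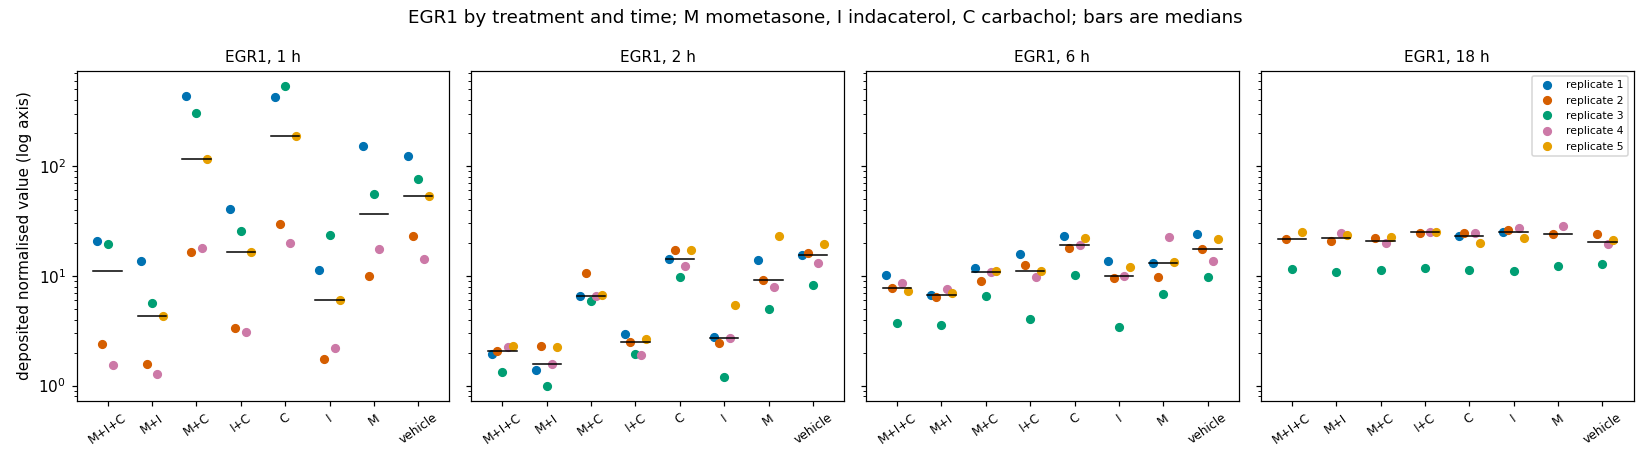
EGR1 in each library at 1, 2, 6 and 18 h on a log axis, by treatment (M mometasone, I indacaterol, C carbachol), coloured by replicate number, with bars at the medians. At 2 h the median of each group with indacaterol (1.59 to 2.7) lies below that of each group without it (6.59 to 15.52), the 1 h values of replicates 2 and 4 lie at the bottom of each group, and replicate 3 is lowest in each group at 18 h.

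EGR1 was lower with indacaterol and carbachol than with carbachol alone. The log2 change was -3.27 ± 0.58 (SE) at 1 h (adjusted p = 1.99e-05) and -2.14 ± 0.58 (SE) at 2 h (adjusted p = 0.0111). In this comparison 3.86% of genes fell at 1 h, 1.23% at 2 h and 0.863% at 6 h, against 3 of the 7 tested members at 1 h (EGR1, NAB2 and RNF227), the same 3 at 2 h and RNF227 at 6 h. With the block EGR1 also passed at 6 h (-0.80 ± 0.58 (SE without the block), adjusted p = 0.959 without and 0.00804 with it). So did MIDN at 2 h (-0.36 ± 0.18 (SE without the block), adjusted p = 0.402 without and 0.00527 with it). The 1 h difference had an adjusted p of 0.0733 when libraries of 1 h alone set the spread. The 2 h difference was lost without replicate 2 (adjusted p = 0.0581) or 5 (adjusted p = 0.0857). Carbachol set directly against indacaterol, which uses the same carbachol libraries, gave 4.10 ± 0.58 (SE) at 1 h (adjusted p = 3.65e-08) and 2.01 ± 0.58 (SE) at 2 h (adjusted p = 0.0235). The 2 h difference was lost without replicate 2, 3, 4 or 5 (adjusted p = 0.124, 0.0619, 0.0529 and 0.0867). In that comparison 0.162% of genes were higher with carbachol at 1 h and 1.01% at 2 h, against 2 and 4 members. IER2 passed at 1 h with the block (0.54 ± 0.19 (SE without the block), adjusted p = 0.335 without and 0.0111 with it).

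The EGR1 values with carbachol and with vehicle lay side by side at 2 h. At that time EGR1 was 14.1, 17.32, 9.78, 12.3 and 17.34 with carbachol, against 15.52, 16.13, 8.19, 13 and 19.38 with vehicle, and the groups overlap throughout. The effect of carbachol was -0.12 ± 0.29 (SE) at 2 h, and its change since 1 h was -1.17 ± 0.42 (SE), with an adjusted p of 1 without the block and 7.68e-08 with it. In vehicle libraries EGR1 averaged 58.1 ± 44.0 at 1 h, 14.4 ± 4.17 at 2 h, 17.4 ± 5.91 at 6 h and 19.3 ± 4.80 at 18 h (SD, n = 5, 5, 5 and 4), and no later time differed from 1 h past the threshold (adjusted p = 0.5 to 1). At 18 h replicate 3 held the 8 lowest EGR1 values of that time, 10.88 to 12.7, against at least 19.56 in all other libraries.

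EGR1 was lower in value with mometasone from 1 to 6 h, and the call turned on the block. The effect was -0.50 ± 0.30 (SE) at 1 h, -0.48 ± 0.29 (SE) at 2 h and -0.53 ± 0.29 (SE) at 6 h, with adjusted p = 0.773, 0.482 and 0.155 without the block and 0.00245, 0.000298 and 1.43e-05 with it. EGR1 was lower with mometasone in 14 of 18, 18 of 20 and 18 of 20 pairs at these times, and it was -0.08 ± 0.33 (SE) at 18 h.

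NAB2, the co-repressor that EGR1 is known to induce, peaked at 2 h. In vehicle libraries it averaged 22.2 ± 6.29 at 1 h, 43.1 ± 8.78 at 2 h, 21.1 ± 0.982 at 6 h and 22.5 ± 1.80 at 18 h (SD, n = 5, 5, 5 and 4). The rise at 2 h over 1 h was 0.95 ± 0.14 (SE) (adjusted p = 9.56e-06), and NAB2 was 1 of the 2 genes (0.0135%) that passed in that comparison.

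At 2 h NAB2 was 44.74, 35.1, 41.12, 33.87 and 37.56 with indacaterol and carbachol. It was 80.34, 82.75, 96.12, 89.04 and 92.16 with carbachol alone, 32.31, 31.76, 25.5, 31.14 and 27.44 with indacaterol alone, and 51.17, 52.07, 31.34, 42.65 and 38.15 with vehicle. Every library with carbachol alone lay above every library of the other 3 groups, and the combination overlapped vehicle. How many of all genes separated in this way was not counted. Carbachol raised NAB2 by 0.63 ± 0.07 (SE) over the 4 backgrounds, in 20 of 20 pairs (adjusted p = 7.79e-11), at a time when 0.121% of genes rose and 3 members did. Indacaterol lowered it by a log2 change of -0.78 ± 0.07 (SE), in 20 of 20 pairs (adjusted p = 2.47e-18), and mometasone by -0.40 ± 0.07 (SE), in 20 of 20 pairs (adjusted p = 3.63e-06).

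The carbachol effect on NAB2 at 2 h was smaller where indacaterol was present. The interaction was -0.67 ± 0.14 (SE) (adjusted p = 0.0252), and that of RNF227 was -0.62 ± 0.12 (SE) (adjusted p = 0.00784). They were 2 of the 3 genes (0.0202%) that passed this test at 2 h. For NAB2 the call was lost without any 1 of the 5 replicate numbers (adjusted p = 0.0504, 0.087, 0.99, 0.161 and 0.341 without 1 to 5) and with each library scaled to 1 sum (adjusted p = 0.202). For RNF227 the adjusted p without replicates 1 to 5 was 0.0546, 0.0629, 0.339, 0.0399 and 0.115, and with each library scaled to 1 sum 0.0712. MIDN had an interaction of -0.46 ± 0.18 (SE), past the threshold only with the block (adjusted p = 1 without and 0.0139 with it). Indacaterol with carbachol against carbachol alone gave a log2 change of -1.18 ± 0.14 (SE) for NAB2 (adjusted p = 2.6e-11) and -1.06 ± 0.12 (SE) for RNF227 (adjusted p = 3.28e-12). At 1 h these differences were -0.61 ± 0.14 (SE) for NAB2 (adjusted p = 0.00226) and -0.42 ± 0.12 (SE) for RNF227 (adjusted p = 0.0186), and both were lost without replicate 2 (adjusted p = 0.0928 and 0.231) or 4 (adjusted p = 0.194 and 0.286).

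**Figure D3:**
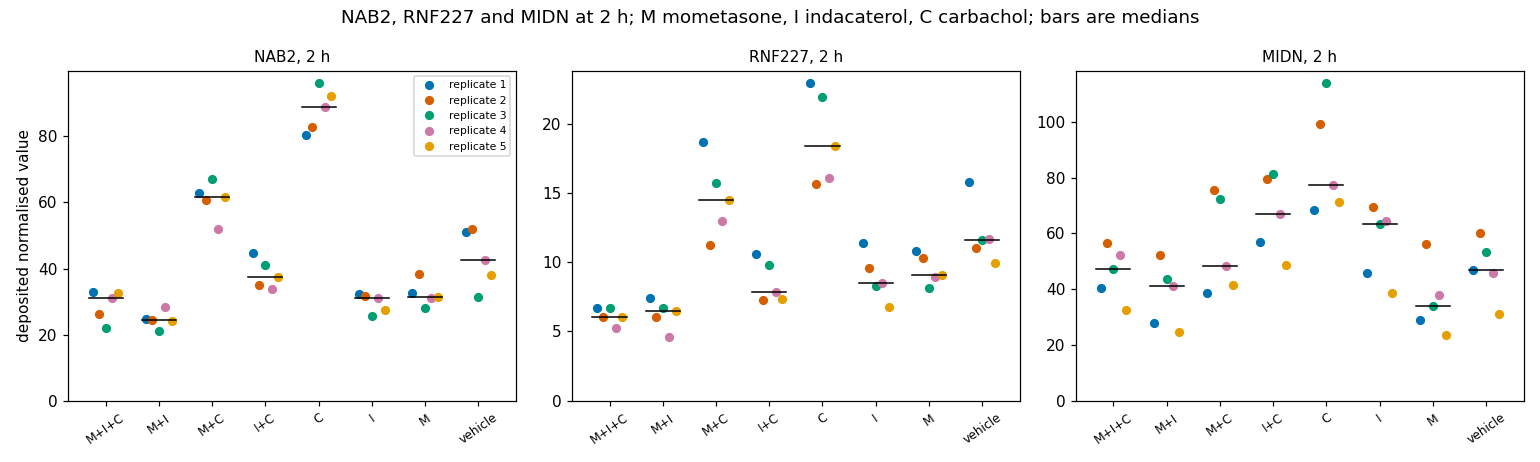
NAB2, RNF227 and MIDN in each library at 2 h by treatment (M mometasone, I indacaterol, C carbachol), coloured by replicate number, with bars at the medians. NAB2 with carbachol alone (80.34 to 96.12) stands above all other groups, and RNF227 is highest with carbachol, alone or with mometasone.

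At 1 h NAB2 had a different pattern among replicates from EGR1. With mometasone and carbachol it was 16.16, 31.4, 19.62, 35.2 and 19.8 in replicates 1 to 5, with carbachol alone 21.55, 53.33, 21.28, 57.76 and 24.01, and with vehicle 17.24, 28.94, 18.86, 29.07 and 16.72. Replicates 2 and 4 were the high ones in all 3 groups, and they were the low ones for EGR1. With indacaterol alone the 5 values were 22.94, 22.3, 21.95, 23.29 and 20.11 with replicate 2 in the middle. Replicates 2 and 4 were again highest, by less, with mometasone and indacaterol (16.31, 18.14, 16.06, 17.92 and 14.54) and with all 3 agents (16.87, 23.33, 15.39 and 22.91 in replicates 1 to 4). With indacaterol and carbachol (18.91, 24.03, 21.35, 19.12 and 20.56) replicate 4 was among the low ones. With mometasone alone (18.73, 18.57, 15.21 and 21.11 in replicates 1 to 4) replicate 2 lay below replicate 1. What set replicates 2 and 4 apart in the other groups was not tested. The carbachol effect on NAB2 at 1 h was 0.26 ± 0.07 (SE), with an adjusted p of 0.186 without the block, 0.0033 with it, and 0.0356 without the libraries over 20% mitochondrial. The effect at 2 h less that at 1 h was 0.37 ± 0.10 (SE), with an adjusted p of 0.694 without the block and 0.00856 with it.

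**Figure D4:**
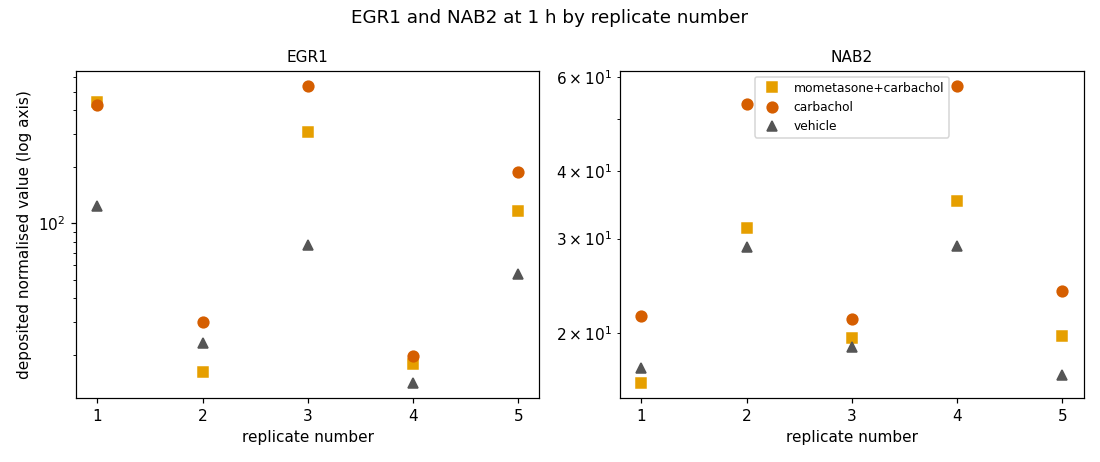
EGR1 and NAB2 at 1 h on log axes by replicate number, with mometasone and carbachol, with carbachol alone and with vehicle. Replicates 2 and 4 are lowest for EGR1 (14.19 to 29.98) and highest for NAB2 (28.94 to 57.76).

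Indacaterol lowered NAB2 at 1 h by a log2 change of -0.24 ± 0.07 (SE) (adjusted p = 0.0267), less than at 2 h by -0.54 ± 0.10 (SE) (adjusted p = 8.97e-05). In that comparison of times 0.56% of genes moved down, and NAB2 and RNF227 were the 2 members that did. The 1 h call was lost without replicate 2 (adjusted p = 0.43) or 4 (adjusted p = 0.83) and when libraries of that time alone set the spread (adjusted p = 0.508). At 1 h NAB2 averaged 22.1 with indacaterol against 22.2 with vehicle, and 20.8 with indacaterol and carbachol against 35.6 with carbachol. It averaged 16.6 with mometasone and indacaterol against 18.4 with mometasone, and 19.6 with all 3 agents against 24.4 with mometasone and carbachol. At 6 h the effect of indacaterol was -0.18 ± 0.07 (SE), with an adjusted p of 0.0705 without the block and 0.00614 with it. Mometasone lowered NAB2 at 1 h by a log2 change of -0.29 ± 0.07 (SE) (adjusted p = 0.00574; 0.101 without replicate 2, 0.431 with the spread of 1 h libraries alone and 0.172 with each library scaled to 1 sum) and at 18 h by -0.29 ± 0.08 (SE) (adjusted p = 0.00275; 0.0613 with each library scaled to 1 sum), and at 6 h the difference was -0.05 ± 0.07 (SE) (adjusted p = 0.626).

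NAB1, the other co-repressor, lies on chromosome 2 (190646746 to 190692766, forward strand) and did not pass for any agent over the 4 backgrounds. Its effects lay between -0.08 and 0.11 with carbachol, -0.15 and 0.01 with indacaterol, and -0.06 and 0.10 with mometasone, with SEs of up to 0.21. The spread between replicates was wide and went with replicate number: at 1 h, replicate 3 was 35.27 to 40.7 and replicate 5 was 9.99 to 11.81 across treatments, with the other replicates at 16.73 to 35.38. With the block the effects at 2 h were 0.11 ± 0.06 (SE), 0.01 ± 0.06 (SE) and 0.04 ± 0.06 (SE) for carbachol, indacaterol and mometasone.

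RNF227 encodes a ring finger protein, and at 2 h it passed in the same directions as NAB2 for all 3 agents. It was then 10.57, 7.26, 9.78, 7.84 and 7.34 with indacaterol and carbachol, 22.93, 15.64, 21.93, 16.06 and 18.39 with carbachol alone, 11.4, 9.58, 8.29, 8.53 and 6.77 with indacaterol alone, and 15.84, 11.02, 11.64, 11.65 and 9.94 with vehicle. Carbachol alone overlapped vehicle only through the vehicle library of replicate 1. Indacaterol lowered RNF227 by a log2 change of -0.78 ± 0.06 (SE) at 2 h in 20 of 20 pairs (adjusted p = 2.86e-22) and by -0.54 ± 0.06 (SE) at 6 h in 19 of 20 (adjusted p = 5.37e-13), when 6.27% of genes fell and IER3 was the other member that did. At 1 h it was lower by a log2 change of -0.26 ± 0.06 (SE) (adjusted p = 0.00257), a call lost without replicate 2 (adjusted p = 0.0556) or 4 (adjusted p = 0.134).

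Carbachol raised RNF227 by 0.28 ± 0.06 (SE) at 2 h (adjusted p = 0.00877), in 14 of 20 pairs. That call was lost without replicate 3, 4 or 5 (adjusted p = 0.39, 0.0551 and 0.143), when libraries of that time alone set the spread (adjusted p = 0.166) and with each library scaled to 1 sum (adjusted p = 0.156). At 6 h and 18 h 0 genes passed with carbachol over the 4 backgrounds, with 275 and 150 at an unadjusted p below 0.05. At 6 h RNF227 was 7.44, 7.37, 7.45, 5.74 and 7.24 with indacaterol and carbachol, 14.13, 11.92, 12.25, 11.81 and 16.93 with carbachol alone, 6.96, 6.4, 6.12, 6.24 and 7.32 with indacaterol alone, and 9.55, 8.54, 9.32, 8.77 and 11.26 with vehicle. Every carbachol library at 6 h was above every vehicle library, and how many of all genes separated so was not counted. Carbachol alone against vehicle did not pass for RNF227 (0.45 ± 0.12 (SE), adjusted p = 1), in a comparison in which 0 genes passed by limma and 124 had an unadjusted p below 0.05. Carbachol against indacaterol at 6 h passed for RNF227 at 0.91 ± 0.12 (SE) (adjusted p = 6.65e-09), when 0.857% of genes were higher with carbachol. Indacaterol with carbachol against carbachol alone gave -0.83 ± 0.12 (SE) at 6 h (adjusted p = 1.06e-07). Mometasone lowered RNF227 by a log2 change of -0.38 ± 0.06 (SE) at 2 h in 20 of 20 pairs (adjusted p = 2.13e-07). At 1 h and 6 h the mometasone effects were -0.18 ± 0.06 (SE) and -0.12 ± 0.06 (SE), with adjusted p = 0.141 and 0.107 without the block and 0.00787 and 0.0289 with it.

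MIDN lies on chromosome 19 (1248553 to 1259140, forward strand) and rose with carbachol at 2 h. It was 56.77, 79.54, 81.27, 66.83 and 48.53 with indacaterol and carbachol, 68.55, 99.21, 113.84, 77.47 and 71.19 with carbachol alone, 45.95, 69.62, 63.29, 64.36 and 38.58 with indacaterol alone, and 46.74, 60, 53.41, 45.66 and 31.16 with vehicle. All 5 carbachol libraries were above all 5 vehicle libraries, and the share of all genes that separated so was not counted. Over the 4 backgrounds carbachol raised MIDN by 0.50 ± 0.09 (SE) in 20 of 20 pairs (adjusted p = 0.000302), with an adjusted p of 0.0905 when 2 h libraries alone set the spread and 0.0768 with each library scaled to 1 sum. At 1 h the effect was 0.26 ± 0.09 (SE), with an adjusted p of 0.817 without the block and 0.000513 with it. Indacaterol did not move MIDN past the threshold at any time, with effects of -0.07 ± 0.09 (SE) at 2 h and -0.07 ± 0.09 (SE) at 6 h. In vehicle libraries MIDN was lower at 6 h than at 1 h by a log2 change of -0.81 ± 0.18 (SE) (adjusted p = 0.0076) and at 18 h by -0.88 ± 0.19 (SE) (adjusted p = 0.0114), where 0.223% and 0.0809% of genes were lower. Both calls were lost with each library scaled to 1 sum (adjusted p = 0.372 and 0.329) and without replicate 2, 3 or 4 (adjusted p = 0.0747 to 0.176 at 6 h and 0.0663 to 0.187 at 18 h), and the 18 h call also without replicate 1 (adjusted p = 0.0514).

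IER3, an early response gene with a role in cell survival, lies on chromosome 6 (30743199 to 30744554, reverse strand) and fell most with mometasone. Across the 4 treatments with mometasone it ran from 4.47 to 16.41 at 2 h, against 25.09 to 53.62 across the 4 without. At 6 h the ranges were 2.77 to 19.43 with mometasone and 20.73 to 63.49 without, and at 18 h 9.66 to 19.53 and 36.94 to 65.48. The ranges do not overlap at these 3 times, and the share of all genes without overlap was not counted. The effect was -1.72 ± 0.15 (SE) at 1 h (adjusted p = 3.52e-19), -1.91 ± 0.14 (SE) at 2 h (adjusted p = 1.43e-23), -2.26 ± 0.14 (SE) at 6 h (adjusted p = 1.36e-29) and -1.61 ± 0.16 (SE) at 18 h (adjusted p = 5.19e-16), and IER3 was lower in every pair. Mometasone lowered 0.836%, 3.59%, 14.6% and 13.8% of all genes at 1, 2, 6 and 18 h, and 4, 5, 3 and 4 of the 7 tested members.

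**Figure D5:**
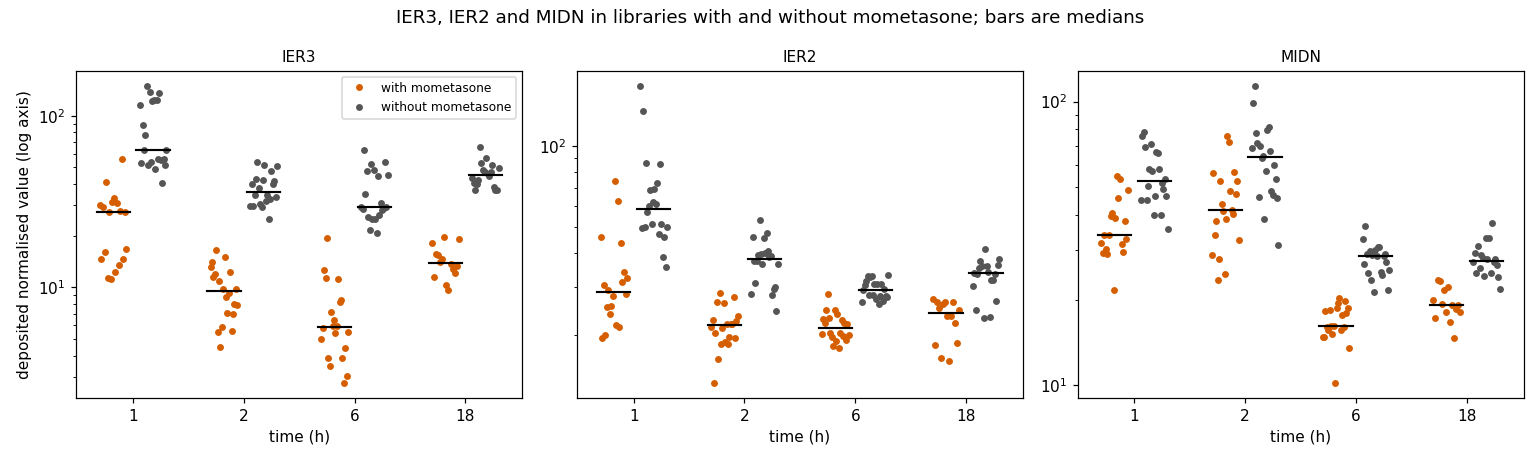
IER3, IER2 and MIDN in each library with and without mometasone at 1, 2, 6 and 18 h on log axes, over the 4 backgrounds of the other agents, with bars at the medians. IER3 at 6 h runs from 2.77 to 19.43 with mometasone and from 20.73 to 63.49 without it.

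IER2 and MIDN fell with mometasone at every time too, by less. IER2, a nuclear early response protein, fell by a log2 change of -0.995 ± 0.10 (SE) at 1 h (adjusted p = 2.92e-15), -0.77 ± 0.10 (SE) at 2 h (adjusted p = 3.59e-11), -0.44 ± 0.10 (SE) at 6 h (adjusted p = 6.82e-05) and -0.49 ± 0.11 (SE) at 18 h (adjusted p = 0.000109), lower in every pair. MIDN fell by a log2 change of -0.58 ± 0.09 (SE) at 1 h, -0.54 ± 0.09 (SE) at 2 h, -0.70 ± 0.09 (SE) at 6 h and -0.50 ± 0.10 (SE) at 18 h, with adjusted p = 5.15e-07, 4.09e-07, 2.45e-11 and 2.27e-05, also lower in every pair. At 6 h MIDN was 10.19 to 20.37 with mometasone and 21.35 to 36.5 without, and did not overlap, which was not counted over all genes.

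Each agent given alone was also set against vehicle. Carbachol raised IER2 at 1 h, among 0.0809% of genes, and NAB2, MIDN and RNF227 at 2 h, among 0.027%. Indacaterol lowered EGR1 at 1 h, when 0.101% of genes fell, EGR1, NAB2 and RNF227 at 2 h, when 0.911% did, and RNF227 at 6 h, when 0.803% did. Of these, NAB2 with carbachol at 2 h and EGR1 with indacaterol at 1 h passed with any 1 replicate number left out, and EGR1 had an adjusted p of 0.649 when 1 h libraries alone set the spread. Each of the others was lost without 3 or more of the 5, with adjusted p of up to 0.172 for IER2, 0.467 for MIDN and 0.323 for RNF227 with carbachol. With indacaterol it was up to 0.108 for EGR1 at 2 h, 0.135 for NAB2 and 0.153 for RNF227 at 2 h, and 0.102 for RNF227 at 6 h. Without the libraries over 20% mitochondrial, IER2 with carbachol at 1 h had an adjusted p of 0.325. With the block IER2 also passed with indacaterol at 2 h, where it was higher (0.51 ± 0.19 (SE without the block), adjusted p = 0.155 without and 0.00635 with it).

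Against vehicle, mometasone lowered IER3 at all 4 times and MIDN at 6 h. IER3 at 6 h was 5.01, 5.76, 12.69, 11.27 and 19.43 with mometasone, against 28.38, 28.87, 53.66, 29.53 and 45.03 with vehicle. In that comparison IER3 changed by -1.78 ± 0.28 (SE) (adjusted p = 2.92e-07) and MIDN by -0.69 ± 0.18 (SE) (adjusted p = 0.0032), and 4.24% of genes fell. The other 3 IER3 changes were -1.26, -1.60 and -1.38 at 1, 2 and 18 h (adjusted p = 0.0128, 1.47e-05 and 0.00231), when 0.054%, 0.486% and 4.96% of genes fell. The 1 h call was lost without replicate 2, 4 or 5 (adjusted p = 0.143, 0.421 and 0.08) and the 18 h call without replicate 3 (adjusted p = 0.0561). With the block IER2 and MIDN also passed at 1 h, at -0.64 ± 0.15 (SE with the block) and -0.68 ± 0.11 (SE with the block) (adjusted p = 0.0056 and 1.17e-06, against 0.175 and 0.345 without it). At 2 h IER2, MIDN and NAB2 did, at -0.52 ± 0.14, -0.41 ± 0.10 and -0.39 ± 0.11 (SE with the block) (adjusted p = 0.00976, 0.00223 and 0.018, against 0.256, 0.523 and 0.241 without it).

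IER2 was the 1 member that passed with carbachol at 1 h without the block. EGR1, MIDN and NAB2 passed with it as well (values above), and the share of all genes that passed with the block was not counted. IER2 was 69.51, 61.03, 72.82, 47.14 and 85.49 with indacaterol and carbachol, 167.19, 49.65, 135.2, 49.94 and 86.61 with carbachol alone, 57.04, 59.9, 68.45, 51.26 and 61.97 with indacaterol alone, and 51.16, 38.66, 45.82, 35.7 and 50.18 with vehicle. Replicates 1 and 3 held the high carbachol values, as for EGR1. Over the 4 backgrounds carbachol raised IER2 by 0.47 ± 0.10 (SE) in 17 of 18 pairs (adjusted p = 0.00347), when 0.189% of genes rose. The call was lost without replicate 1, 3 or 5 (adjusted p = 0.0649, 0.093 and 0.0633) and when 1 h libraries alone set the spread (adjusted p = 0.951).

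With indacaterol IER2 was higher in value at 2 h, and IER3 was higher in value at 1 h and fell at 6 h. At 2 h indacaterol left IER2 higher by 0.25 ± 0.10 (SE) in 18 of 20 pairs, with an adjusted p of 0.0745 without the block and 0.00365 with it, and its change since 1 h was 0.33 ± 0.14 (SE) (adjusted p = 0.406 without the block and 0.0281 with it). IER3 at 1 h was 149.58, 51.59, 137.9, 53.64 and 121.3 with indacaterol alone, against 54.8, 40.55, 55.89, 51.67 and 63.33 with vehicle. Over the 4 backgrounds indacaterol moved IER3 by 0.31 ± 0.15 (SE) at 1 h and -0.36 ± 0.14 (SE) at 2 h, with adjusted p = 0.396 and 0.0834 without the block and 0.00336 and 8.83e-05 with it, and lowered it by a log2 change of -0.55 ± 0.14 (SE) at 6 h (adjusted p = 0.00268). The change of sign between 1 h and 2 h was a difference of -0.66 ± 0.20 (SE) (adjusted p = 0.0733 without the block and 2.66e-06 with it). At 6 h IER3 averaged 34.5 with indacaterol against 37.1 with vehicle, and 29.6 with indacaterol and carbachol against 40.7 with carbachol. It averaged 5.36 with mometasone and indacaterol against 10.8 with mometasone, and 3.93 with all 3 agents against 7.84 with mometasone and carbachol. Indacaterol alone against vehicle did not pass for IER3 at 6 h.

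Whether mometasone acted differently when another agent was present was tested by interactions. With carbachol no gene passed at any time by limma, and 103 to 166 genes had an unadjusted p below 0.05. The mometasone by carbachol interaction of EGR1 at 1 h was -0.17 ± 0.60 (SE), with a 95% interval of -1.36 to 1.01. With indacaterol no member passed without the block, while 0.614%, 1.17%, 0.735% and 0.121% of genes did at 1, 2, 6 and 18 h. With the block, IER3 passed at 1 h and 2 h, at -0.41 ± 0.16 (SE) (adjusted p = 0.0339) and -0.52 ± 0.15 (SE) (adjusted p = 0.0163), and NAB1 at 1 h, at -0.31 ± 0.12 (SE) (adjusted p = 0.0331). IER3 at 2 h was 5.51, 10.85, 4.47, 5.91 and 9.77 with mometasone and indacaterol, against 53.62, 37.72, 30.57, 29.41 and 42.02 with indacaterol alone. It was 13.05, 14.06, 11.51, 11.92 and 16.41 with mometasone alone, against 47.8, 39.82, 41.89, 33.66 and 50.93 with vehicle.

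The genes around EGR1 in its pathway did not all move with it. Of 21 tested immediate early genes outside the members, 9 rose and 0 fell with carbachol at 1 h, when 0.189% of all genes rose (list median 0.39, all genes 0.00), led by NR4A1 at 1.81 ± 0.13 (SE) and FOSB at 1.65 ± 0.15 (SE). With indacaterol at 1 h, 12 rose and 5 fell, when 3.28% of all genes rose and 1.23% fell (list median 0.62, all genes 0.00). NR4A3 and NR4A2, orphan nuclear receptors, rose by 3.89 ± 0.16 (SE) and 3.54 ± 0.14 (SE), and the members of the list that fell were FOSL1, JUN, IER5, MCL1 and PPP1R15A. With mometasone at 1 h, 6 rose and 8 fell, when 1.8% of all genes rose and 0.836% fell (list median -0.03, all genes 0.01), with KLF6 at 2.09 ± 0.24 (SE) and ZFP36, which promotes the decay of short-lived messages, at 2.08 ± 0.09 (SE) among those that rose. These lists were chosen with earlier results known, so their counts describe them and test nothing.

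The feedback genes of the ERK pathway, which lies upstream of EGR1, were counted in the same way, from a list also chosen with earlier results known. Of 13 tested, 2 rose with carbachol at 1 h, when 0.189% of all genes did (list median 0.24, all genes 0.00), DUSP5 by 0.67 ± 0.09 (SE) and SPRY4 by 0.58 ± 0.11 (SE). With indacaterol at 1 h, 3 rose and 1 fell, when 3.28% of all genes rose and 1.23% fell (list median 0.10, all genes 0.00): the phosphatases DUSP5 and DUSP4 rose by 1.15 ± 0.09 (SE) and 0.96 ± 0.12 (SE), SPRY2 by 0.95 ± 0.11 (SE), and DUSP6 fell by -0.60 ± 0.11 (SE). With mometasone at 2 h, 6 rose and 0 fell, when 4.98% of all genes rose and 3.59% fell (list median 0.34, all genes 0.00), led by ERRFI1, an inhibitor of the EGF receptor, at 2.80 ± 0.15 (SE). Later the direction was not kept. At 6 h 2 rose and 3 fell with mometasone, when 18.4% of all genes rose and 14.6% fell (list median -0.16, all genes 0.02). At 18 h 1 rose and 6 fell, when 13.8% of all genes fell (list median -0.19, all genes 0.05). Of the 6 genes of serum response factor and its partners, none passed with carbachol at any time, and SRF fell with indacaterol at 2 h (-0.21 ± 0.05 (SE)) and with mometasone at 2 h (-0.28 ± 0.05 (SE)), when 5.41% and 3.59% of all genes fell.

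Of 18 genes described elsewhere as EGR1 targets, 1 passed with carbachol at 1 h, GADD45A at 0.28 ± 0.06 (SE), when 0.189% of all genes rose (list median 0.04, all genes 0.00), and none later. With indacaterol at 2 h, 2 rose and 5 fell, when 8.13% of all genes rose and 5.41% fell (list median -0.02, all genes 0.01). GADD45A and PDGFB, a growth factor subunit, fell by -0.87 ± 0.06 (SE) and -0.65 ± 0.11 (SE), while CDKN1A, a cell cycle inhibitor, rose by 0.71 ± 0.06 (SE). With mometasone at 6 h, 5 rose and 6 fell, when 18.4% of all genes rose and 14.6% fell (list median -0.13, all genes 0.02), with F3, tissue factor, at -2.45 ± 0.15 (SE) and PDGFB at -1.06 ± 0.11 (SE) among those that fell.

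Across the 32 group means, the genes most like EGR1 by Pearson's r of log2(value + 1) were DUSP6 (r = 0.85), ORAI3 (r = 0.79), CCDC71L (r = 0.78), TMEM60 (r = 0.77) and KIFC1 (r = 0.76). Those most like NAB2 were LFNG (r = 0.85), PHF13 (r = 0.83), AXIN2 (r = 0.78), ZBTB7A (r = 0.77) and POLR1G (r = 0.77). Among the members, IER2 and IER3 had r = 0.84, NAB2 and RNF227 r = 0.70, NAB2 and MIDN r = 0.69, and EGR1 and NAB2 r = -0.11. These correlations describe 32 points that share replicate numbers within a time.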

How the data were processed

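RNA of BEAS-2B cells was sequenced with TruSeq libraries on 2 sequencing kits, per the labels' protocols. STAR 2.4.2a, bcl2fastq 2.17.1.14 and the build GRCh38 stand in the submitters' processing notes. For quantifier, annotation, strand and scaling no source used here gives a name. The authors deposited 1 normalised signal per gene and library and call it TPM, but columns sum to 847289 to 1498421, so the values were not taken as TPM, although the fixed design was written for any such unit. Depth is unknown, and no counting interval is given.

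10 columns were not used: 4 that the authors marked as excluded and 6 headed 8 h, a time in no label. A gene was tested where 5 or more libraries reached 1 (14827 genes, with 14446 left out). Tests used log2(value + 1) and limma (version 3.58.1, R 4.3.3) with 32 group coefficients, 118 residual degrees of freedom and eBayes with trend. P-values were adjusted by Benjamini-Hochberg per comparison and time. The code was tested on simulated data. Lists named in the text give the counts called for the effects over 4 backgrounds and up to 4 genes with the largest changes. The values of 1 list gene are not reported here. Members and lists were chosen with earlier results of these data known.

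Replicate numbers come from the labels. For every effect over 4 backgrounds, means of same-numbered libraries with and without the agent deviated together for each replicate number. For carbachol r was 0.38 to 0.90 at 1 h, with a lowest r of 0.13 at 18 h. The fit with replicate number within time as a block is therefore given where it changes a call and the numbers pair the libraries. Shares of all genes that passed come from the fit without the block and were not counted with it. Where adjusted p is given both with and without the block, the SE is from the fit without it unless marked. Alternatives changed the pseudocount, the filter, the libraries in the fit, the block, the scaling and the libraries or replicates left out. Promoter windows come from RefSeq GRCh38.p14.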

Additional observations from a re-analysis of the deposited data

Results flagged for a closer look

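In 11 of 210 groups of 4 or 5 libraries of a gene, 1 library stood apart from the others by Dixon's 95% criterion, which chance gives in about 1 group in 20. EGR1 was 10.54 in replicate 2 of mometasone with carbachol at 2 h, with the others at 5.9 to 6.7, and 11.75 in replicate 3 of indacaterol with carbachol at 18 h, with the others at 24.76 to 24.94. NAB1 was 39.36 in replicate 3 of mometasone at 1 h, with the others at 23.27 to 24.38, and 17.31 in replicate 5 of all 3 agents at 2 h, with the others at 27.76 to 30.71. NAB2 was 28.03 in replicate 5 of carbachol at 6 h, with the others at 23 to 23.83. IER2 was 47.7 in replicate 2 of indacaterol with carbachol at 2 h, with the others at 38.78 to 40.69, and 16.36 in replicate 3 of mometasone with indacaterol at 18 h, with the others at 25.09 to 26.47. IER3 was 49.85 in replicate 5 of vehicle at 18 h, with the others at 36.94 to 38.3. RNF227 was 6.92 in replicate 5 of vehicle at 1 h, with the others at 8.92 to 9.66. It was 15.84 in replicate 1 of vehicle at 2 h, with the others at 9.94 to 11.65, and 5.74 in replicate 4 of indacaterol with carbachol at 6 h, with the others at 7.24 to 7.45.

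The effect of indacaterol differed between 2 h and 1 h, past an adjusted p of 0.05 by limma, for NAB2 (-0.54, log2) and for RNF227 (-0.52, log2).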

How the results depend on the processing

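Results were counted as calls of a member at a time. The share of all genes called with the block was not counted, so the block counts stand without one. For carbachol over 4 backgrounds there were 4 calls, with 1 when each time was fitted alone, 7 with the replicate block, 2 with each library rescaled to the same sum, and 2 to 4 without 1 replicate number. For indacaterol over 4 backgrounds there were 8, with 13 under the replicate block and 6 to 8 without 1 replicate number. For mometasone over 4 backgrounds there were 16, with 21 under the replicate block and 15 to 17 without 1 replicate number. For carbachol alone versus vehicle there were 4, with 6 under the replicate block, 1 when each time was fitted alone and 1 to 3 without 1 replicate number. For indacaterol alone versus vehicle there were 5, with 8 under the replicate block and 1 to 3 without 1 replicate number. For mometasone alone versus vehicle there were 5, with 11 under the replicate block. For indacaterol+carbachol versus carbachol there were 7, with 10 under the replicate block and 4 to 7 without 1 replicate number. For carbachol versus indacaterol there were 7, with 9 under the replicate block and 4 to 6 without 1 replicate number. For the carbachol by indacaterol interaction there were 2, with 3 under the replicate block, 1 at a pseudocount of 0.1, 1 when each time was fitted alone, 1 with median ratio scaling, 0 with each library rescaled to the same sum, and 0 to 1 without 1 replicate number. For the mometasone by indacaterol interaction there were 0, and 4 with the replicate block. For the effect at 2 h minus the effect at 1 h there were 2, and 7 with the replicate block. For vehicle at a later time versus 1 h there were 3, with 4 under the replicate block, 1 when sums were rescaled and 1 to 3 without 1 replicate number. Of the 40 calls that the block added, 9 are in comparisons whose numbers do not pair the libraries, such as EGR1 and NAB2 with carbachol alone at 1 h and IER3 in the mometasone by indacaterol interaction at 6 h.

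No member result changed sign among those called. Of 63 calls, the replicate block ended none, median ratio scaling, the pseudocount and no filter 1 each, leaving out libraries over 20% mitochondrial 2, rescaled sums 13, each time fitted alone 17 of the 58 it could give, and leaving out replicates 1 to 5 ended 9, 20, 14, 16 and 15. Rescaled sums moved the median of all genes by over 0.1 (log2) in 8 of 50 comparisons, the most in indacaterol+carbachol versus carbachol at 2 h (a move of -0.19, to -0.18), where NAB2 was then -1.41, RNF227 -1.28 and EGR1 -2.33. The cause of these differences was not tested. Without the filter on low values, EGR2 passed with indacaterol over 4 backgrounds at 1 h (-0.40, adjusted p = 1.78e-05), and EGR3 in indacaterol+carbachol versus carbachol at 1 h (-0.36, adjusted p = 0.0202). Depth is unknown, so what the lowest values can show is not limited by a count here.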
